A study of Mus musculus with 24 samples.

Results

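The genes described here are 10 of the 13998 genes in the deposited table, taken by name: the 1-acylglycerol-3-phosphate acyltransferases Agpat1, Agpat3, Agpat4 and Agpat5, their relative Lclat1, the glycerol-3-phosphate acyltransferase gene Gpam, the lipin genes Lpin1 and Lpin2, and the diacylglycerol acyltransferase genes Dgat1 and Dgat2. All 10 were present. The family was picked when the genotype difference of Agpat1 in these mice was already known, so the genotype values of the 10 genes are a description and carry no test. Expression had been measured by SAGE-Seq, in which a short tag is read from the 3′ part of each polyadenylated transcript and the tags of a gene are counted. The samples were the hypothalami of 24 adult male F2 mice, 1 library per mouse, of which 12 were b6/b6 and 12 were cast/cast across a donor segment of proximal Chr 17. The segment of the cast/cast mice came from the wild-derived strain CAST/EiJ through the subcongenic line B6.CAST-17.1, and both groups carried C57BL/6J alleles over the rest of the genome. All mice were non-recombinant littermates that had chosen between a carbohydrate/protein (C/P) and a fat/protein diet over 10 d, had returned to chow, and had been given the same diets again before a short fast and death. The cast/cast mice had been chosen for high and the b6/b6 mice for low C/P intake, which ran from 77.8 to 106.6 kcal in cast/cast and from 27.4 to 41.0 kcal in b6/b6 mice, so genotype and intake cannot be told apart. The whole hypothalamus was lifted out by eye. In such bulk tissue fewer cells of a type and less RNA per cell cannot be told apart.

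Cells build glycerolipids by adding fatty acids to glycerol-3-phosphate. A glycerol-3-phosphate acyltransferase such as that of Gpam adds the first chain and gives lysophosphatidic acid, AGPAT enzymes add the second and give phosphatidic acid, and lipins take off the phosphate to give diacylglycerol. Diacylglycerol goes either to the phospholipids of membranes or, through the DGAT enzymes, to triglyceride that is stored in droplets. Phosphatidic acid also feeds the branch that makes phosphatidylinositol and cardiolipin, the latter a lipid of mitochondrial membranes that the enzyme of Lclat1 can remodel. In brain most of this flux serves membranes, including myelin.

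In the hypothalamus of these mice Agpat1 was the gene of the set with the largest difference between genotypes, lower in cast/cast mice, with 342.3 ± 63.0 normalized counts for b6/b6 against 196.9 ± 79.1 for cast/cast (SD, n = 12 each), a 1.74-fold difference of the means. Agpat4, which lies in the same donor segment, had 303.1 ± 184 and 241.6 ± 46.2 normalized counts (SD, n = 12 each), and its medians of 239.9 and 238.2 were nearly equal. By the call rule used across the table (limma, P no higher than 0.01 before adjustment, and means that differ at least 1.5-fold), 1 of the 10 genes was called, against 1.49% of all 13998 genes, and the same 1 without the 4 libraries described below, against 1.37%. Since the set was picked with this contrast in view, nothing is read from that count. The other 8 genes lie outside the segment, and their ratios of b6/b6 to cast/cast means ran from 0.886 for Dgat1 to 1.34 for Agpat3 and for Lclat1.

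The expected tags are shown for Agpat1 and Agpat4 and, beside them, for Agpat3, which lies on Chr 10, where both groups carried C57BL/6J alleles. For the 2 genes in the donor segment, a base that differs between CAST/EiJ and C57BL/6J inside a tag could change how many tags align. Each is the last CATG of the RefSeq transcript with the bases after it, 27 bases read 5′ to 3′ on the strand of the gene from GRCm38, with the CATG anchor in capitals.
Agpat1: CATGgggctggctcgtgtaactcagag
Agpat4: CATGgtgctgcgtcttctctaaccctc
Agpat3: CATGcacctgcctcccccctcccccgc
The Agpat1 tag lies at chr17:34612954-34612980 on the plus strand, in the 3′ UTR in exon 7 of 7, and both RefSeq transcripts of the gene end with it. The Agpat4 tag lies at chr17:12219525-12219551 on the plus strand, in the 3′ UTR in exon 9 of 9, and that of Agpat3 at chr10:78271871-78271897 on the minus strand, in the 3′ UTR in exon 10 of 10. Each of the 3 sequences, looked for anywhere in the annotated transcripts, occurred in those of 1 gene. Of the 12 tags predicted for the 10 genes, 11 were particular to 1 gene, and the exception was that of Lclat1, whose last anchor sits 12 bases before the transcript end. This short tag occurs in transcripts of 15 genes, Lclat1 among them, so which tag was counted for Lclat1 is not known. Lpin1 and Lpin2 each had a pair of predicted tags, from transcripts that end at different places. The table gives counts per gene and not per tag, so the tags are those expected and not those seen. The part of CAST/EiJ bases in the counts of Agpat1 and Agpat4 was not tested.

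Libraries held 7754202 to 13082873 tag hits, with medians of 10032338 for b6/b6 against 10383038 for cast/cast. A set of 4 libraries stood apart from the rest, namely b6/b6 mice 6 and 12 and cast/cast mice 4 and 6, whose median correlation with the others was 0.803 to 0.871 against 0.890 to 0.942 for the other 20. In the 2 b6/b6 libraries the summed microglia markers, at 2106 to 2143, were below the other 10 b6/b6 mice at 2505 to 4227, while astrocyte markers, at 35882 to 36580, and choroid plexus markers, at 220.5 to 226.2, were above the others, which reached 34266 and 207.5. Their pituitary markers were at 158.9 to 469.8 against 0 to 183.6, and their hypothalamic neuron markers at 17577 to 30333 against 12394 to 21259. In the 2 cast/cast libraries hypothalamic neuron markers, at 6663 to 8889, were below the other 10 cast/cast mice at 9867 to 36299, and pituitary markers, at 3.56 to 26.7, lay within 0 to 264.8. The same 2 libraries had microglia markers at 2642 to 5742 against 2376 to 4472, and thalamus markers at 595.6 to 918.7 against 288.5 to 617.1. Study numbers, which the labels give for each mouse, had a median of 269.5 for b6/b6 against 120.5 for cast/cast. Over the markers of neurons, hypothalamic neurons, oligodendrocytes, astrocytes, microglia, endothelium, choroid plexus, pituitary and thalamus, Tcf7l2 of the thalamus list was the only gene called between genotypes, lower in cast/cast mice. The part of these features in the values below was not tested.

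**Figure D1:**
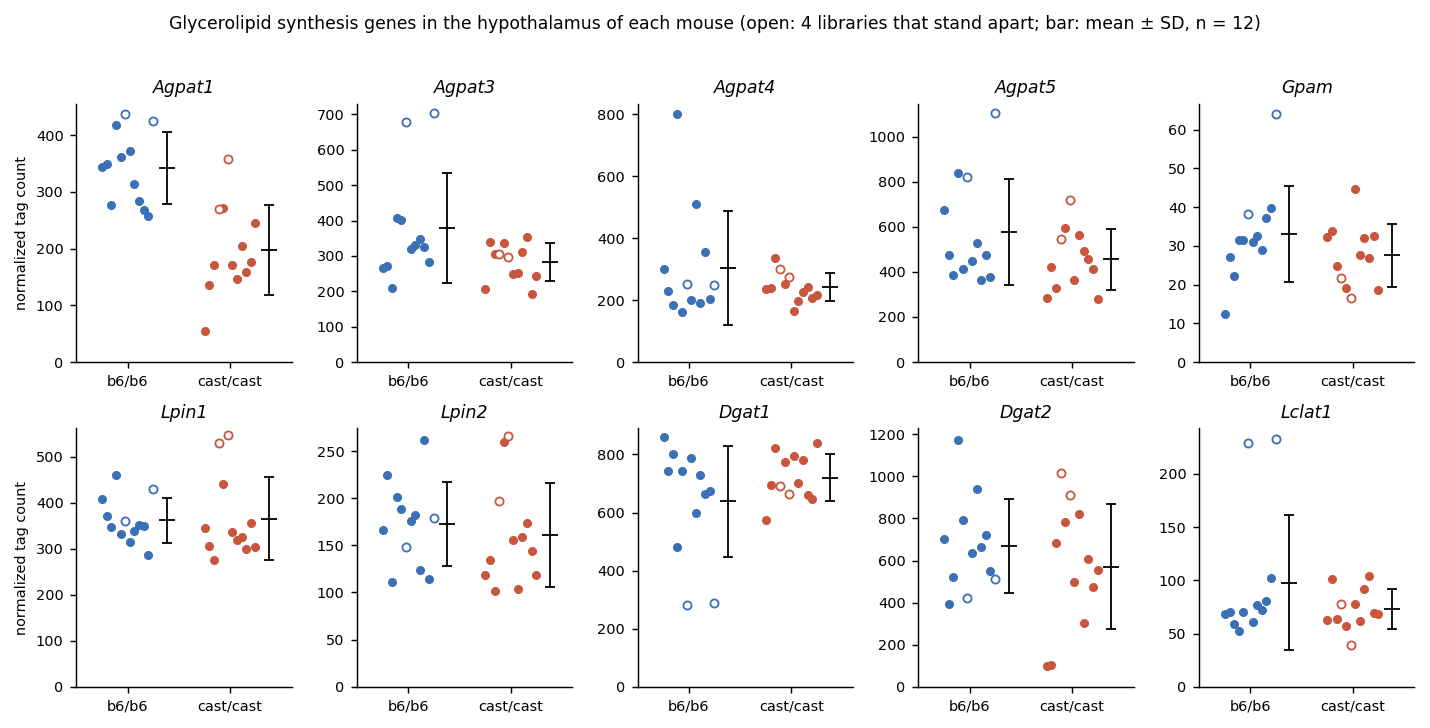
Normalized tag count (vertical axes, each from 0) of the 10 genes in every b6/b6 (blue) and cast/cast (red) mouse, with the mean ± SD at the right of each group (n = 12) and the 4 libraries that stand apart as open circles. For Agpat1 9 of the 12 cast/cast mice lie below the lowest b6/b6 mouse at 257.3, whereas for Agpat4 all 12 cast/cast mice lie within the b6/b6 range.

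Agpat1 encodes an AGPAT of the endoplasmic reticulum and lies at chr17:34605861-34613449 on the plus strand (GRCm38), in the donor segment. Its normalized counts in b6/b6 mice were 257.3 at the lowest, 346.9 at the median and 436.4 at the highest. In cast/cast mice the lowest value was 54.9, the median 174.0 and the highest 358.4. In all, 9 cast/cast mice were under every b6/b6 mouse, while the highest 3 of the group fell inside the b6/b6 range, so the groups overlapped. The counts behind these values were 265 to 531 tag hits for b6/b6 against 51 to 302 for cast/cast. The log2 fold change, cast/cast minus b6/b6 on the log2(normalized count + 1) scale, was -0.90 (SE 0.21).

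The lowest cast/cast mouse was mouse 1 at 54.9, and the highest, mouse 6 at 358.4, was one of the libraries that stand apart. The b6/b6 mice 6 and 12, the other genotype's libraries of that kind, had the highest Agpat1 of their group at 436.4 and 424.2. Without the 4 libraries the means were 324.7 ± 52.6 and 173.5 ± 59.7 (SD, n = 10 each), the log2 fold change was -0.98 (SE 0.20), and 9 of the 10 cast/cast mice left were under the lowest b6/b6 mouse. Among mice with study numbers of at most 150 the log2 fold change of Agpat1 was -1.03 (SE 0.37) and the gene was not called. Among those above 150 it was -0.75 (SE 0.19) and the gene was called. Relative spread was wider in cast/cast mice, at a coefficient of variation of 40.2% against 18.4% in b6/b6 mice.

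Agpat4 encodes an AGPAT found in brain, lies at chr17:12119284-12219640 on the plus strand, and sits in the segment far from Agpat1. Its normalized counts ran from 161.0 over a median of 239.9 to 800.2 in b6/b6 mice. They ran from 166.1 over a median of 238.2 to 337.0 in cast/cast mice, which placed every cast/cast mouse inside the b6/b6 range. The higher b6/b6 mean came from mice 4 and 8, at 800.2 and 509.8, both with study numbers above 150 and neither among the libraries that stand apart. The log2 fold change was -0.18 (SE 0.21) over all mice, 0.27 (SE 0.19) for study numbers of at most 150 and -0.60 (SE 0.33) above 150.

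Agpat3, an AGPAT of the endoplasmic reticulum and Golgi, lies on Chr 10. It ran from 209.3 over a median of 328.1 to 704.8 normalized counts in b6/b6 and from 191.4 over 301.0 to 352.4 in cast/cast mice. The highest b6/b6 values, 704.8 and 677.5, belonged to mice 12 and 6, and the next b6/b6 mouse was at 407.6. With the 4 libraries that stand apart left out the log2 fold change of Agpat3 moved from -0.35 (SE 0.17) to -0.19 (SE 0.14).

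Agpat5, whose product has been placed at mitochondria and the nuclear envelope, lies on Chr 8 and had the most tags of the 4 Agpat genes described in both genotypes. Its predicted tag, at chr8:18891307-18891333, lies past the gene end of 18884413 in the table and overlaps the antisense gene Gm35934, so which tag was counted is not known. It ran from 364.7 over a median of 474.0 to 1105 normalized counts in b6/b6 and from 279.7 over 439.6 to 720.5 in cast/cast mice. Mouse 12 gave the highest b6/b6 value and mouse 6 the highest cast/cast value, so the top of each group was again a library that stands apart. In cast/cast 4 mice were below every b6/b6 mouse, and the log2 fold change was -0.30 (SE 0.19).

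Lclat1, the lysocardiolipin acyltransferase gene, lies on Chr 17 at chr17:73107985-73243366, beyond the donor segment. The b6/b6 mice ran from 51.9 over a median of 71.4 to 232.7 normalized counts. The cast/cast mice ran from 39.2 over a median of 68.7 to 104.4. Its b6/b6 mice 6 and 12 were at 228.9 and 232.7, more than 100 normalized counts above all others, and without the 4 libraries the log2 fold change went from -0.27 (SE 0.23) to 0.08 (SE 0.15). The direction of this gene thus rests on those libraries.

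The 5 genes of the set that encode or resemble AGPATs summed to 1697 ± 547 normalized counts for b6/b6 against 1249 ± 239 for cast/cast (SD, n = 12 each). The medians of the sum were 1453 and 1230, and without the 4 libraries the means were 1523 ± 399 and 1180 ± 190 (SD, n = 10 each). Agpat2, Agpat6 and Agpat9 were listed with the other enzymes of the route and were not in this sum. Their means were 8.40, 3132 and 39.0 normalized counts for b6/b6 against 6.86, 2990 and 39.8 for cast/cast. The shares below are therefore shares of the 5 genes alone. Agpat6 and Agpat9 are older names of Gpat4 and Gpat3, which are glycerol-3-phosphate acyltransferase genes like Gpam. SAGE counts 1 tag position per transcript, so the sum was taken without division by length. Agpat1 made up 21.1% ± 3.85 of this sum for b6/b6 against 15.4% ± 4.62 for cast/cast, and without the 4 libraries 21.9% and 14.6%. The groups overlapped, the share running from 15.6% to 26.5% in b6/b6 and from 6.50% to 23.3% in cast/cast mice. The shares of Agpat3, at 22.3% ± 4.49 and 22.8% ± 3.12, and of Agpat5, at 33.3% ± 3.94 and 36.0% ± 5.59, differed by less than their SDs (n = 12 each).

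**Figure D2:**
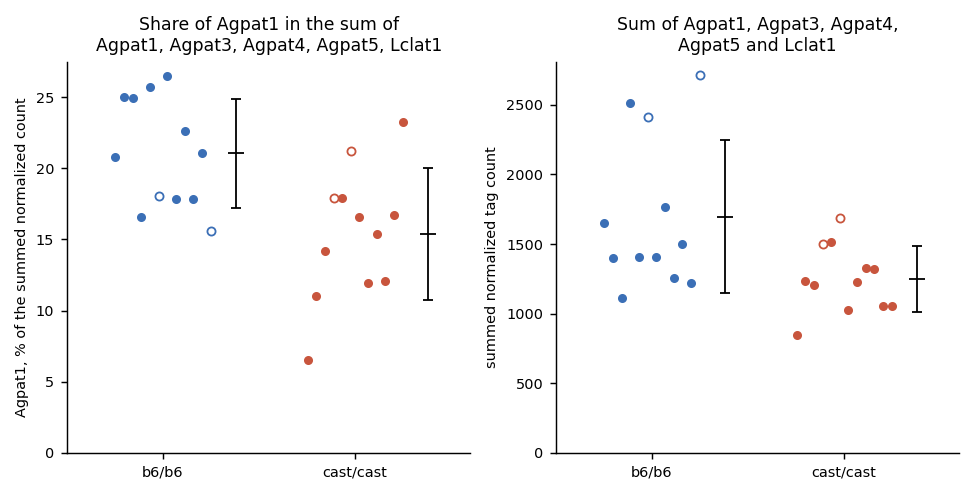
Share of Agpat1 in the summed normalized count of Agpat1, Agpat3, Agpat4, Agpat5 and Lclat1 (left, percent) and that sum (right) in each mouse, with the mean ± SD (n = 12) beside each genotype and open circles for the libraries that stand apart. The Agpat1 share averages 21.1% for b6/b6 against 15.4% for cast/cast with overlap, and the 2 open b6/b6 circles are among the 3 highest sums.

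Gpam encodes a mitochondrial glycerol-3-phosphate acyltransferase, an enzyme that can start the route, and was the least abundant of the 10 genes. Its normalized counts ran from 12.4 over a median of 31.6 to 64.2 in b6/b6 and from 16.6 over 27.3 to 44.6 in cast/cast mice, from 11 to 59 tag hits. Its log2 fold change was -0.22 (SE 0.21), and without the libraries that stand apart it was 0.00 (SE 0.20), so no direction was seen in the other 20 mice.

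The lipins turn phosphatidic acid into diacylglycerol. Lpin1 ran from 286.4 over a median of 350.3 to 460.3 normalized counts in b6/b6 and from 274.7 over 330.7 to 548.4 in cast/cast mice, with a log2 fold change of -0.01 (SE 0.12), the smallest of the set. Its coefficient of variation in b6/b6 mice, 13.5%, was also the smallest of the 10. The highest cast/cast values of Lpin1, 548.4 and 529.6, were those of the libraries that stand apart, and without the 4 libraries the log2 fold change was -0.11 (SE 0.11). Lpin2 lies on Chr 17 at chr17:71183978-71249818, beyond the segment. Its range was 111.6 to 261.4 with a median of 177.4 normalized counts in b6/b6 and 101.6 to 265.9 with a median of 149.6 in cast/cast mice, and its log2 fold change was -0.13 (SE 0.18).

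The DGAT enzymes close the route to triglyceride and are not related to each other in sequence. Dgat1 was the gene with a positive log2 fold change, cast/cast minus b6/b6. It ran from 283.1 over a median of 703.1 to 860.8 normalized counts in b6/b6 and from 572.6 over 698.3 to 840.0 in cast/cast mice. The 2 lowest b6/b6 mice, at 283.1 and 289.3, were the libraries that stand apart, and the log2 fold change of 0.25 (SE 0.17) became 0.05 (SE 0.11) without the 4 libraries. Dgat2 had the widest spread in cast/cast mice, a coefficient of variation of 51.9%. It ran from 394.1 over a median of 650.3 to 1174 normalized counts in b6/b6 and from 97.9 over 580.3 to 1013 in cast/cast mice. Cast/cast mice 1 and 2 were at 97.9 and 102.4, and the next mouse was at 301.4. The log2 fold change of Dgat2 was -0.46 (SE 0.33), and without the 4 libraries, which hold the highest 2 cast/cast values, it was -0.76 (SE 0.35).

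Taking the 10 genes side by side, 9 had a negative log2 fold change and the median was -0.25, where 52.7% of all genes were negative with a median of -0.02. Without the 4 libraries 7 were negative and the median was -0.21. Every one of the 10 overlapped between genotypes, and 0.336% of all genes did not overlap. In the window of 3 to 46 Mb on Chr 17 that covers the donor segment, 24.8% of 411 genes were called and 10.2% did not overlap. Scaling the libraries to the same total moved the median of all genes to -0.11, and Agpat1 to -0.99 (SE 0.21).

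**Figure D3:**
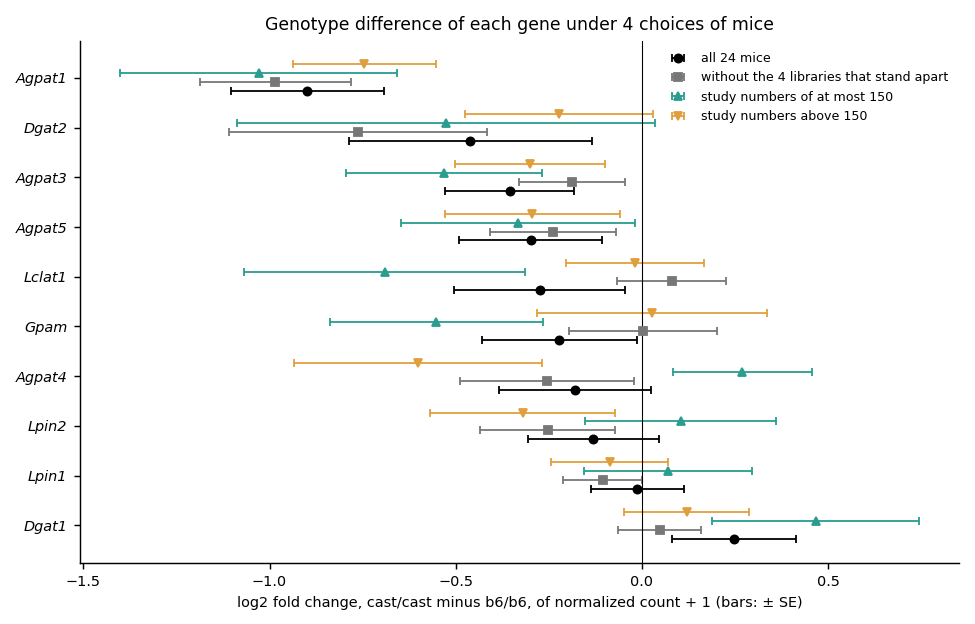
Log2 fold change, cast/cast minus b6/b6, of log2(normalized count + 1) for the 10 genes (points) with its SE (bars), over all 24 mice, without the 4 libraries that stand apart, and within the lower and higher study numbers. Agpat1 lies between -1.03 and -0.75 under all 4 choices, whereas Agpat4, Gpam, Lpin1 and Lpin2 change sign between the study numbers. Without the 4 libraries Gpam and Lclat1 lie at or above 0.

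The order of the genes by level was tested within b6/b6 mice. The genotype difference known when the genes were picked includes the b6/b6 values of Agpat1. The neighbouring pairs were set by the means of the same mice and not beforehand. By mean normalized count the order was Dgat2, Dgat1, Agpat5, Agpat3, Lpin1, Agpat1, Agpat4, Lpin2, Lclat1 and Gpam, from 669.2 to 33.1. Agpat5 stood above Agpat3 in 12 of 12 mice, by 0.60 ± 0.38 on the log2 scale (SD; exact sign-flip permutation test, two-sided, adjusted p = 0.0022 over 9 neighbouring pairs). Lclat1 stood above Gpam in 12 of 12 mice, by 1.43 ± 0.55 (SD; same exact test, adjusted p = 0.0022), and the unadjusted p of both, 0.000488, is the smallest that 12 mice allow. Agpat4 stood above Lpin2 in 11 of 12 mice (exact adjusted p = 0.0059) and Lpin2 above Lclat1 in 10 of 12 (exact adjusted p = 0.011). Over all 12 mice the other 5 neighbouring pairs, Dgat2 with Dgat1, Dgat1 with Agpat5, Agpat3 with Lpin1, Lpin1 with Agpat1 and Agpat1 with Agpat4, did not differ beyond their spread. Without the 2 b6/b6 libraries that stand apart Dgat1 stood above Agpat5 in 9 of 10 mice, by 0.54 ± 0.55 (exact adjusted p = 0.028), against 0.16 ± 1.02 over all 12. Without a test, the order of means in cast/cast mice was Dgat1, Dgat2, Agpat5, Lpin1, Agpat3, Agpat4, Agpat1, Lpin2, Lclat1 and Gpam. Against all 12 b6/b6 mice, Dgat1 and Dgat2, Lpin1 and Agpat3, and Agpat4 and Agpat1 had changed places. With the 2 b6/b6 libraries that stand apart left out, Lpin1 was already above Agpat3 in b6/b6 mice, at 356.3 against 316.3. Dgat2 and Dgat1 were then nearly equal, at 709.8 and 708.6, and Agpat1 stayed above Agpat4, at 324.7 against 313.6. How fully a tag is recovered can differ between genes, so the order is one of tag counts.

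Members were next compared from mouse to mouse within each genotype, as 45 pairs in each and 90 in all. Pearson r ran from -0.91 to 0.80 in b6/b6 and from -0.63 to 0.80 in cast/cast mice, with medians of 0.21 and 0.19. One pair passed an adjusted p of 0.05: Agpat3 and Dgat1 were inversely related in b6/b6 mice (r = -0.91, permutation p = 0.00035, adjusted p = 0.0315; rho = -0.80, permutation p = 0.0028, adjusted p = 0.11; n = 12). Leaving out the 2 mice farthest from the median of Agpat3, which were mice 6 and 12, brought r to -0.59. Without all libraries whose median correlation was under 0.91 r was -0.34 over 8 mice. Among the 7 b6/b6 mice with study numbers above 150, which include neither mouse 6 nor mouse 12, r was -0.68. The lower study numbers held 5 mice, too few for a value. The part of those libraries in the relation was not tested. In cast/cast mice the same pair had r = 0.32 (permutation p = 0.32, adjusted p = 0.56; rho = 0.08, permutation p = 0.80, adjusted p = 0.90; n = 12), and the difference between the genotypes was not tested.

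Agpat1 and Agpat5 varied in the same direction in b6/b6 mice, with r = 0.79 (permutation p = 0.0027, adjusted p = 0.051; rho = 0.71, permutation p = 0.012, adjusted p = 0.14; n = 12). In cast/cast mice Agpat1 and Dgat2 had r = 0.75 (permutation p = 0.0030, adjusted p = 0.051; rho = 0.60, permutation p = 0.044, adjusted p = 0.25; n = 12), and mouse 1 was the lowest for both genes. Lpin1 and Lpin2 had r = 0.80 in cast/cast mice (permutation p = 0.0024, adjusted p = 0.051; rho = 0.65, permutation p = 0.026, adjusted p = 0.18; n = 12). None of these 3 passed. Without the 4 libraries the values of r were 0.67, 0.70 and 0.73 over 10 mice each, and without the 9 libraries with a median correlation under 0.91 they were 0.40 over 8 b6/b6 mice, and 0.48 and 0.55 over 7 cast/cast mice. Agpat1 and Agpat4, the pair in the donor segment, had r = 0.24 over b6/b6 and 0.23 over cast/cast mice (permutation adjusted p = 0.66 for both).

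**Figure D4:**
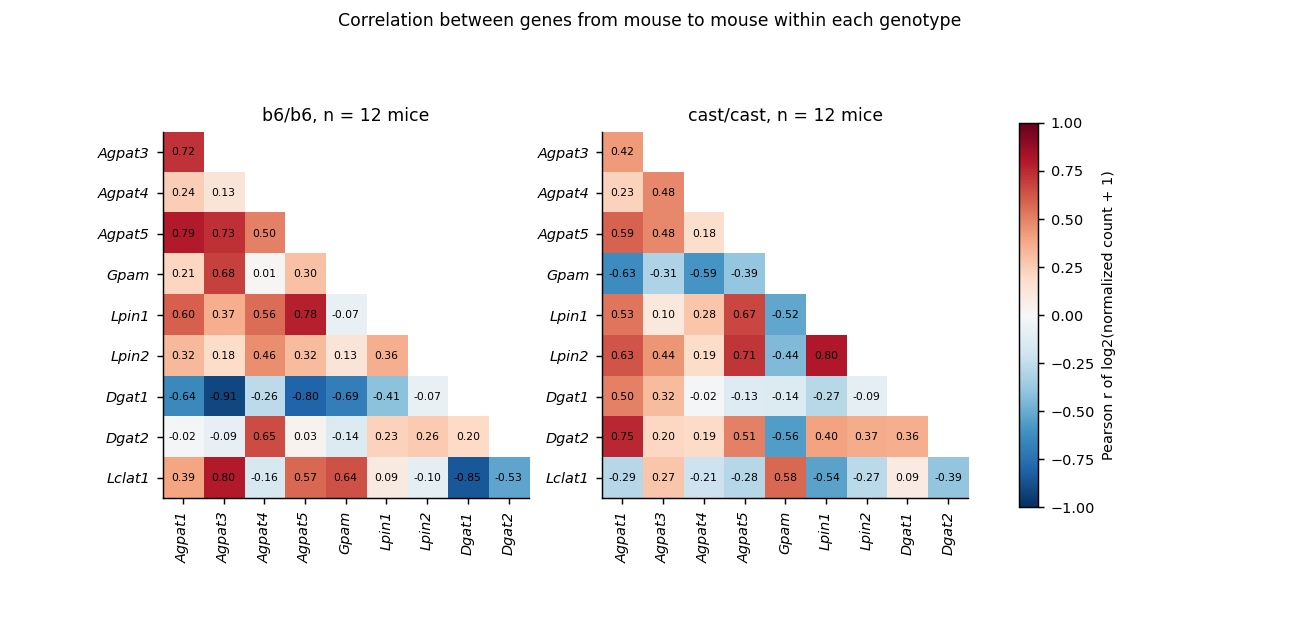
Pearson r of log2(normalized count + 1) between each pair of the 10 genes over 12 b6/b6 mice (left) and 12 cast/cast mice (right), with color from blue (-1) to red (1) and the value printed in each cell. Agpat3 and Dgat1 give the strongest value, -0.91 in b6/b6 mice, and the same pair is at 0.32 in cast/cast mice.

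The relation of each gene to the 10 d intake of its mouse was tested within each genotype, over C/P kcal and total kcal, as 40 relations. One passed: Agpat5 was lower in b6/b6 mice that had eaten more from the C/P diet (r = -0.84, permutation p = 0.00054, adjusted p = 0.0216; rho = -0.71, permutation p = 0.0115, adjusted p = 0.23; n = 12). Without the 2 mice farthest from the median intake r was -0.70, without the libraries that stand apart it was also -0.70 over 10 mice, and among the 7 mice with study numbers above 150 it was -0.85. In both reduced sets of 10 mice no relation of the 40 passed after adjustment. C/P intake spanned only 27.4 to 41.0 kcal among these mice, which had been chosen for low values.

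Agpat1 had r = -0.57 with C/P kcal in b6/b6 mice (permutation p = 0.0495, adjusted p = 0.26; rho = -0.48, permutation p = 0.11, adjusted p = 0.39; n = 12) and r = 0.21 in cast/cast mice (permutation p = 0.49, adjusted p = 0.75; rho = 0.36, permutation p = 0.25, adjusted p = 0.56; n = 12). Dgat2 in cast/cast mice had the lowest r with total kcal, -0.67 (permutation p = 0.0178, adjusted p = 0.23; rho = -0.66, permutation p = 0.0228, adjusted p = 0.30; n = 12), which did not pass. In all, 7 of the 40 relations had an unadjusted p of at most 0.05.

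Other genes of lipid synthesis and breakdown were tested for genotype from 6 lists picked by function, of which 81 genes were in the table and none lay in the donor segment. By limma 1 of the 81 was called, against 1.49% of all genes and 0.676% of the 12866 genes outside the window that covers the segment. None passed an adjusted P of 0.05 by limma, which 0.572% of all genes did. An unadjusted P of at most 0.05 was reached by 9 of the 81, and by 8.13% of all genes. On tag hits edgeR called 5 and DESeq2 called 1 of the 81, against 2.79% and 2.82% of all genes. Neither called the gene that limma did. The shares of all genes include the genes of the segment. Mlxipl, which encodes the carbohydrate-responsive factor ChREBP that drives genes of lipid synthesis, was at 20.2 ± 12.2 normalized counts for b6/b6 against 32.1 ± 11.9 for cast/cast (SD, n = 12 each; log2 fold change 0.76, SE 0.27, limma P = 0.00855, adjusted P = 0.47). It was not called without the libraries that stand apart, with a log2 fold change of 0.40. It also lost the call in 15 of 24 fits that each left out a single mouse. The median log2 fold change of the 81 genes was -0.05, near that of all genes.

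By list, none of the 10 other enzymes of the route was called, among them Gpd2, the mitochondrial glycerol-3-phosphate dehydrogenase (log2 fold change -0.41, limma adjusted P = 0.55), and, listed with them, Tmem86a, a lysoplasmalogenase gene (-0.34, adjusted P = 0.68). None of the 6 lysophospholipid acyltransferases was called, and Lpcat3 and Lpcat4 were at 0.20 and -0.39 (limma adjusted P = 0.72 and 0.66). None of the 19 genes of the phospholipid branch was called, with Ptpmt1, the phosphatase of cardiolipin synthesis, at 0.33 and Cds2, which makes CDP-diacylglycerol from phosphatidic acid, at -0.59 (limma adjusted P = 0.40 and 0.61). Of the 13 diacylglycerol kinases and lipid phosphatases none was called over all mice. Ppap2c was at 0.33 and Dgkb at -0.53 (limma adjusted P = 0.59 and 0.67), and without the 4 libraries Dgkb was at -0.87 and met the call rule with an adjusted P of 0.49. Among the 16 genes of triglyceride breakdown and droplets none was called, the droplet coat genes Plin3 and Plin4 being at 0.47 and 1.01 (limma adjusted P = 0.24 and 0.59). Of the 17 genes of acyl-CoA supply the called gene was Mlxipl, and the acyl-CoA synthetases Acsl4 and Acsl6 were at -0.31 and -0.82 (limma adjusted P = 0.59 and 0.62). Without the 4 libraries Acsl6 was at -0.14, Cds2 at -0.25 and Plin4 at 0.55.

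**Figure D5:**
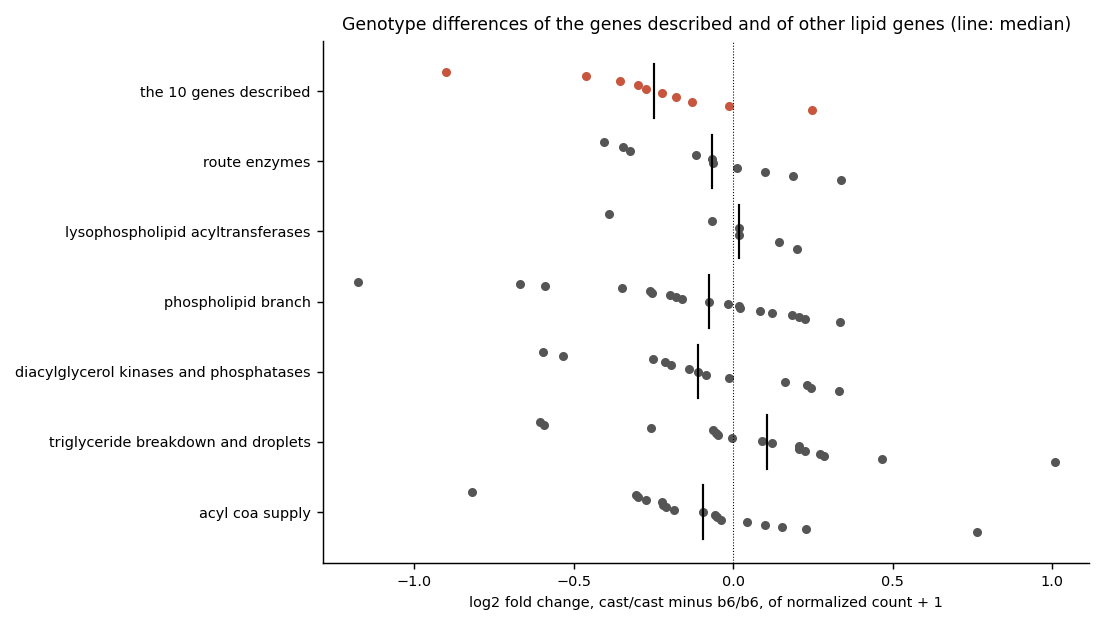
Log2 fold change, cast/cast minus b6/b6, of log2(normalized count + 1) for the 10 genes described (red) and for 81 other lipid genes in 6 lists (grey), 1 point per gene, with the median of each row as a line. Agpat1 at -0.90 is the lowest of the 10, and the medians of the lists run from -0.11 to 0.11.

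The genes next to Agpat1 were not called. Upstream, Pbx2 was at a log2 fold change of 0.52 and Rnf5, whose end lies 2.3 kb before Agpat1, at 0.12 (limma adjusted P = 0.64 and 0.93). Downstream, Ppt2 did not meet the rule at -1.04 (SE 0.43, limma P = 0.0216, adjusted P = 0.57), from 70.8 ± 64.3 to 33.7 ± 18.8 normalized counts, and Prrt1 was at -0.31 (adjusted P = 0.78). Egfl8 overlaps the last 99 bases of Agpat1 and was at 6.87 and 9.80 normalized counts in b6/b6 and cast/cast mice, far under the level of Agpat1. Around Agpat4, Park2 and Map3k4 were not called (limma adjusted P = 0.61 and 0.79), and 4732491K20Rik, 99.2 kb downstream, was lower in cast/cast mice, at 27.1 ± 7.76 against 61.3 ± 12.3 normalized counts (SD, n = 12 each; log2 fold change -1.18, SE 0.17, limma adjusted P = 5.86e-05).

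The genes whose levels most resembled those of Agpat1 over the 24 mice, after the mean of each genotype was taken off, were Arhgdia (r = 0.85), Bcam (0.85), Kcna6 (0.83), Chd5 (0.82) and Dynll2 (0.82), out of 9995 genes that averaged 50 normalized counts or more. In the same order, r was 0.76, 0.43, 0.66, 0.60 and 0.54 within b6/b6 mice. Within cast/cast mice it was higher for each, at 0.89, 0.92, 0.88, 0.87 and 0.90. None of the 5 lies on Chr 17. These values share the libraries and their depth.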

How the data were processed

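Hypothalamus SAGE-Seq libraries of 24 mice, 12 b6/b6 and 12 cast/cast by the genotype label, were used from the deposited table. The authors aligned tags with a modified SOLiD SAGE software to RefSeq mRNA and GRCm38 (mm10) and divided hits by the DESeq size factor, so the deposited signal values are normalized counts. The deposited p-value, ratio and log2 columns hold the comparison the authors made with DESeq and were not used. Repeated rows (19529 for 13998 genes) were used 1 time. In every library 100% of values were whole multiples of 1 step (tolerance 0.02), which gave whole tag hits. No 2 libraries were alike within counting noise. Nothing beyond separate mice marks replicates, and p-values measure the spread between mice.

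The genes, lists and tests were chosen with earlier results of these data known. All genes with a mean of at least 5 (the lowest was 6.03) were fitted with limma 3.58.1 (lmFit, then eBayes with trend) on log2(normalized count + 1) without covariates. Calls needed P of at most 0.01 and means at least 1.5-fold apart, with Benjamini-Hochberg adjustment over all genes. These fold changes understate differences of low genes. Alternatives were pseudocounts of 0.5 and 5, other minimum means, equal totals, edgeR 4.0.16 and DESeq2 1.42.0 on tag hits, study number (as a covariate, or split at 150), other call rules and leaving out each mouse. Leaving out libraries whose median correlation with the others, over genes with a mean of at least 50, was under 0.88 or 0.91 was chosen after seeing the data. Correlations used 100000 permutations. In simulated data limma called 84% of genes changed 2-fold, 97% changed 4-fold and 0.515% of unchanged genes. The simulation drew each gene alone with the b6/b6 spread in both groups and changed only genes with a mean of at least 50. These rates need not hold for the real libraries. Named genes were the 10 members, in each list every called gene and the 2 with the lowest P not called, the 5 most like Agpat1, and the nearest 2 genes on each side of Agpat1 and of Agpat4, 1 of which is not reported here. The 4 libraries that stand apart, Egfl8, Agpat2, Agpat6 and Agpat9 are named besides. Tags were predicted from GENCODE M21 transcripts matched to 14 of 16 RefSeq accessions. Counting error alone limits a library to values above 3 tag hits.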

Additional observations from a re-analysis of the deposited data

How the results depend on the processing

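Agpat1 was the member called, and it alone, under 37 of 38 alternatives, with a log2 fold change of -1.03 to -0.74. Leaving out each mouse in turn kept 1 call. The exception was the mice with study numbers of at most 150, where 0 members were called at -1.03 (SE 0.37) with 12 mice fitted. All alternatives reuse these 24 mice, and dropping the minimum mean left the fit the same, since no gene was under it. The set was picked with this contrast known, so these counts describe the call and do not test it. The signs of Agpat3, Agpat5, Dgat1 and Dgat2 held under all 38, and those of Agpat4, Gpam, Lpin1, Lpin2 and Lclat1 did not. Of pathway genes, 0 to 1 were called without each mouse, with none in 15 of 24 fits, and 0 with equal totals, with study numbers above 150 or with an adjusted P. With edgeR 5 were called (Cdipt, Pisd, Ctdnep1, Abhd12 and Plin4, and not Mlxipl), 1 by DESeq2 (Cds2), 2 with study number as a covariate (Cds2 and Mlxipl), 2 with study numbers of at most 150 (Lpcat4 and Mlxipl) and 3 with no minimum ratio (Ptpmt1, Plin3 and Mlxipl). Pairs past the adjusted p numbered 11 with equal totals, 16 on normalized counts and 0 without the 4 libraries that stand apart. Relations with intake numbered 0 without the 2 mice farthest from the median and 0 without those libraries. The cause of these shifts was not tested. No paired analysis was possible because the labels give the mice no replicate number that the genotypes share.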
